A study of Mus musculus with 7 samples.

Results

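The genes described here are 44 cell cycle and mitosis genes, a list of proliferation genes given by name and measured in mouse left ventricle by RNA sequencing. Their Ensembl identifiers were matched to mouse symbols, and a gene was tested if it had at least 10 counts in at least 3 libraries. All 44 genes passed, as members of the 13894 genes tested in all. The study compared wildtype (WT) mice with littermates homozygous for A178D, an alanine to aspartate change in the giant sarcomere protein titin. The change was introduced into *Ttn* with CRISPR-Cas9 in embryonic stem cells, together with a silent change that creates a restriction site for genotyping, and is carried by every cell of the animal. The labels give the strain of both groups as C57BL/6J and the tissue as left ventricle, name no treatment, and do not give the age or sex of these mice. There were 3 WT hearts, numbered 1, 3 and 4, and 4 A178D hearts, numbered 1 to 4, with 1 library per heart, so that p-values measure the spread between these hearts. The depth of a WT library was 41102868 to 54245530 counts (median 51797208), and that of an A178D library 33080675 to 52345529 counts (median 41398874).

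A cell enters division when cyclins switch on their partner kinases, the CDKs. D-type cyclins with Cdk4 and Cdk6 release the E2F factors, which turn on the genes for DNA replication, and cyclin B with Cdk1 then drives mitosis, in which kinetochores attach the chromosomes to the spindle. Most cardiomyocytes leave the cell cycle soon after birth, and dividing cells of the adult ventricle are mostly endothelial cells, fibroblasts and blood-derived cells. A178D is a change of protein sequence, and counts per gene do not show which allele a heart carries.

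Of the 44 genes, 1 passed the test between the genotypes, *Cenpf*, a microtubule-binding protein of the kinetochore and nuclear envelope, which fell to 37.7% of its WT level in A178D hearts. In edgeR's quasi-likelihood test, adjusted over all tested genes by the Benjamini-Hochberg method, 2.35% of genes had an adjusted p under 0.05. These calls were 1.31% of genes in the lower direction, in which *Cenpf* was the only member called, and 1.04% in the higher direction, in which 0 members were called. DESeq2 and limma-voom each called *Cenpf* lower as well. In the higher direction DESeq2 called 1 member, the centromeric histone gene *Cenpa*, and limma-voom called 0. Of all genes to which it gave an adjusted p, DESeq2 called 2.21% higher and 2.88% lower, more than edgeR did. At an unadjusted p under 0.05 from edgeR, 4 members were higher (*Cenpa*, *Cdk1*, *Ccnb2* and *Bub1*), beside 7.93% of all genes, and 1 was lower (*Cenpf*), beside 8.81% of all genes. The hearts of the genotypes did not overlap in *Cenpa* and *Mybl2*, the 2 members for which each A178D heart lay above each WT heart, as was the case in 7.61% of all genes. They did not overlap in the lower direction in 1 member, *Cenpf*, as in 8.52% of all genes. A fold change above 0 was found in 33 of the 44 members and in 50.5% of all genes, with a median log2 fold change (A178D over WT) of 0.14 for the members and 0.0023 for all genes. That tilt rested in part on A178D replicate 2. Without this heart 27 of the 44 members were above 0 and their median was 0.047.

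Most of these transcripts were rare. The median WT level of the members was 2.53 CPM (the count relative to a library total scaled by TMM), against 18.8 CPM for all genes tested, and the median standard error of their log2 fold change was 0.227, against 0.107. On the scale of CPM per kb of exon length, which allows genes to be compared, the members had a median WT level of 0.533 and all genes 3.92. The D-type cyclin genes *Ccnd1* and *Ccnd2* stood at the top of the list in WT hearts, with 22.0 ± 2.95 and 20.1 ± 1.84 CPM per kb (SD, n = 3), a difference within their spread. They were followed by their partner kinase gene *Cdk4* with 16.2 ± 1.30 and by *Pcna*, the sliding clamp of DNA polymerases, with 14.2 ± 1.05. *Cenpa* had 6.88 ± 0.371 and the third D-type cyclin gene *Ccnd3* 6.85 ± 0.555, again within their spread. *Cenpf* ranked 7 with 4.36 ± 1.83 CPM per kb, and the next gene of mitosis, *Cdc20*, an activator of the anaphase promoting complex, had 0.873 ± 0.312. The kinesin gene *Cenpe*, which like *Cenpf* serves the kinetochore, had 0.132 ± 0.0515, and the checkpoint kinase gene *Bub1* 0.0975 ± 0.0323. The lowest level was that of *Mybl2*, a transcription factor of proliferating cells, with 0.0835 ± 0.0302.

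**Figure D1:**
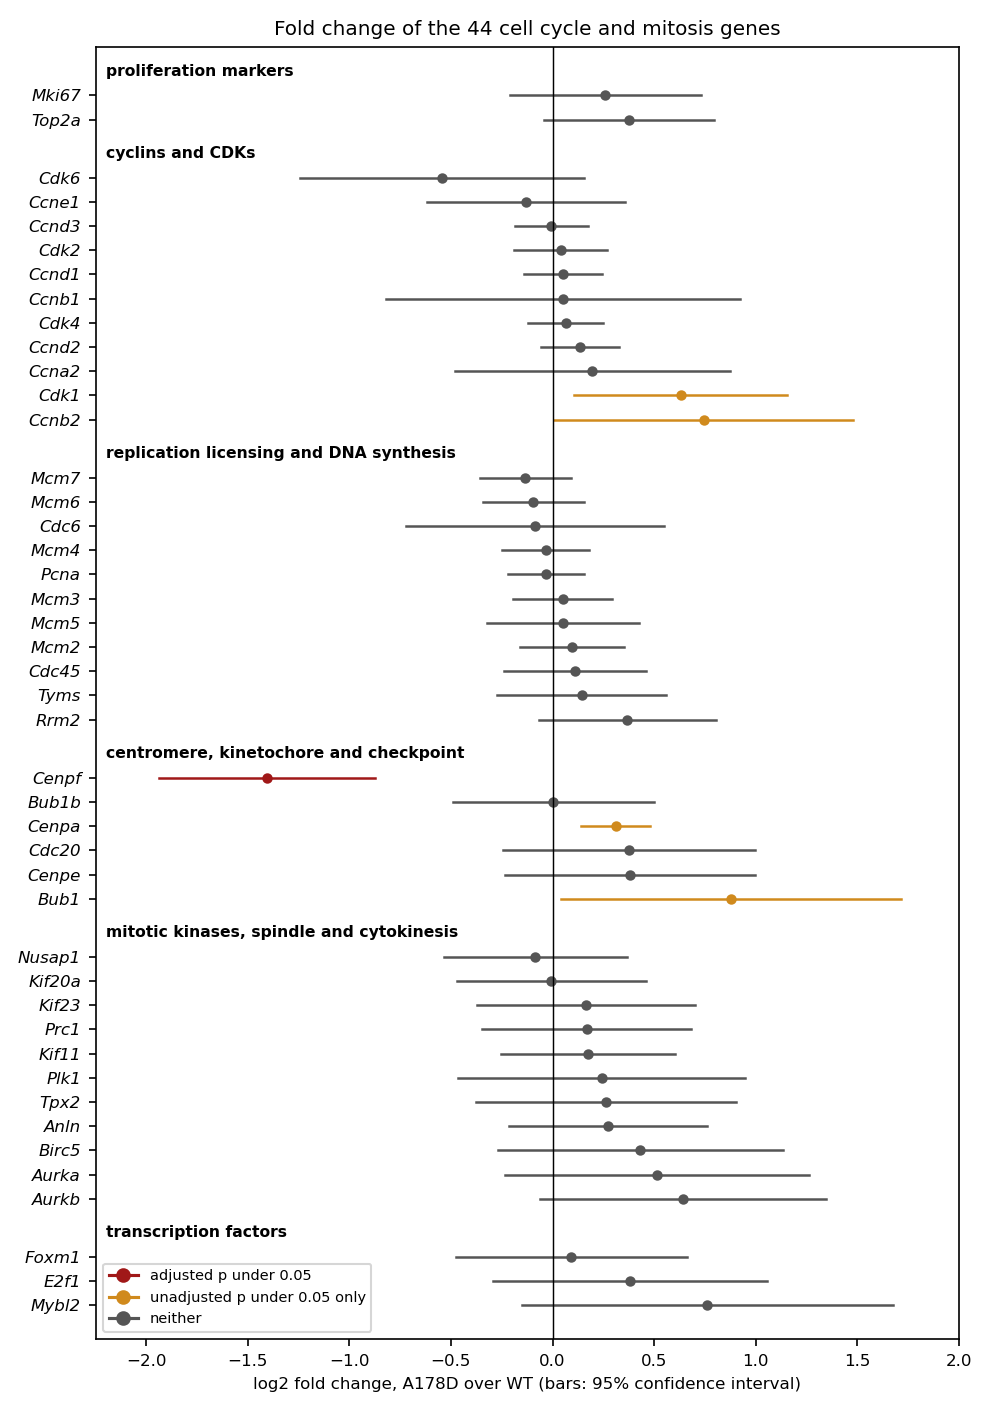
Log2 fold change (A178D over WT, x axis) of each of the 44 genes, grouped by role, with 95% confidence intervals from edgeR as bars. *Cenpf* is the only gene in red, which marks an adjusted p under 0.05, and *Cenpa*, *Cdk1*, *Ccnb2* and *Bub1*, in orange, have an unadjusted p under 0.05 only.

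Among the 6 centromere, kinetochore and checkpoint genes, *Cenpf* (ENSMUSG00000026605) lies on the minus strand at chr1:189640606-189688086 (GRCm38), and a processed pseudogene, *Gm37239*, overlaps it on the other strand. Its level in WT hearts was 38.7 CPM in replicate 1, 94.99 in replicate 3 and 68.2 in replicate 4. In A178D hearts it was 19.6 in replicate 1, 32.2 in replicate 2, 30.9 in replicate 3 and 18.5 in replicate 4. Each A178D heart lay below each WT heart, but the WT hearts were themselves spread widely, and the lowest of them, replicate 1, came close to the highest A178D hearts. *Cenpf* fell by 1.41 on the log2 scale (standard error 0.25, 95% interval -1.94 to -0.87), from 67.3 ± 28.2 CPM (SD, n = 3) to 25.3 ± 7.26 CPM (SD, n = 4), with an adjusted p of 0.0115 from edgeR. The call was lost without WT replicate 3 (log2 fold change -1.07, adjusted p = 0.0823) and without WT replicate 4 (-1.40, 0.0621), and the fits that each left out 1 heart gave log2 fold changes from -1.68 to -1.07. In bulk tissue, fewer cells of a type and less RNA per cell cannot be told apart.

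*Cenpa* (ENSMUSG00000029177, plus strand, chr5:30666777-30674830) encodes the histone H3 variant that marks centromeres. WT hearts had 41.6 CPM in replicates 1 and 3 and 37.8 in replicate 4. A178D hearts had 45.6, 49.8, 50.6 and 54.2 CPM in replicates 1 to 4. The WT hearts were tightly grouped and each A178D heart lay above them. The log2 fold change was 0.31 (standard error 0.08, 95% interval 0.14 to 0.48), with an adjusted p of 0.0631 in edgeR's test, which misses the threshold. DESeq2 gave an adjusted p of 0.0133 and edgeR with offsets for transcript length and GC content 0.0307, within a range of 0.0133 to 0.225 over 16 alternatives, 2 of which called the gene. *Cenpa* and *Cenpf* thus lay on opposite sides of 0 although both encode proteins of the centromere region.

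*Bub1* encodes a kinase of the spindle assembly checkpoint, which holds back anaphase until all chromosomes are attached. It had 0.343, 0.587 and 0.345 CPM in WT replicates 1, 3 and 4, which stand for 18, 32 and 14 counts. A178D hearts had 0.843, 1.02, 0.703 and 0.556 CPM in replicates 1 to 4. WT replicate 3 lay just above A178D replicate 4, and the other hearts were separated by genotype. Its log2 fold change was 0.88 (standard error 0.39, edgeR adjusted p = 0.278). The remaining 3 genes of the group were not separated. *Cenpe* had a log2 fold change of 0.38, *Cdc20* also 0.38, and the checkpoint kinase gene *Bub1b* 0.0046, with edgeR adjusted p from 0.541 to 0.996.

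**Figure D2:**
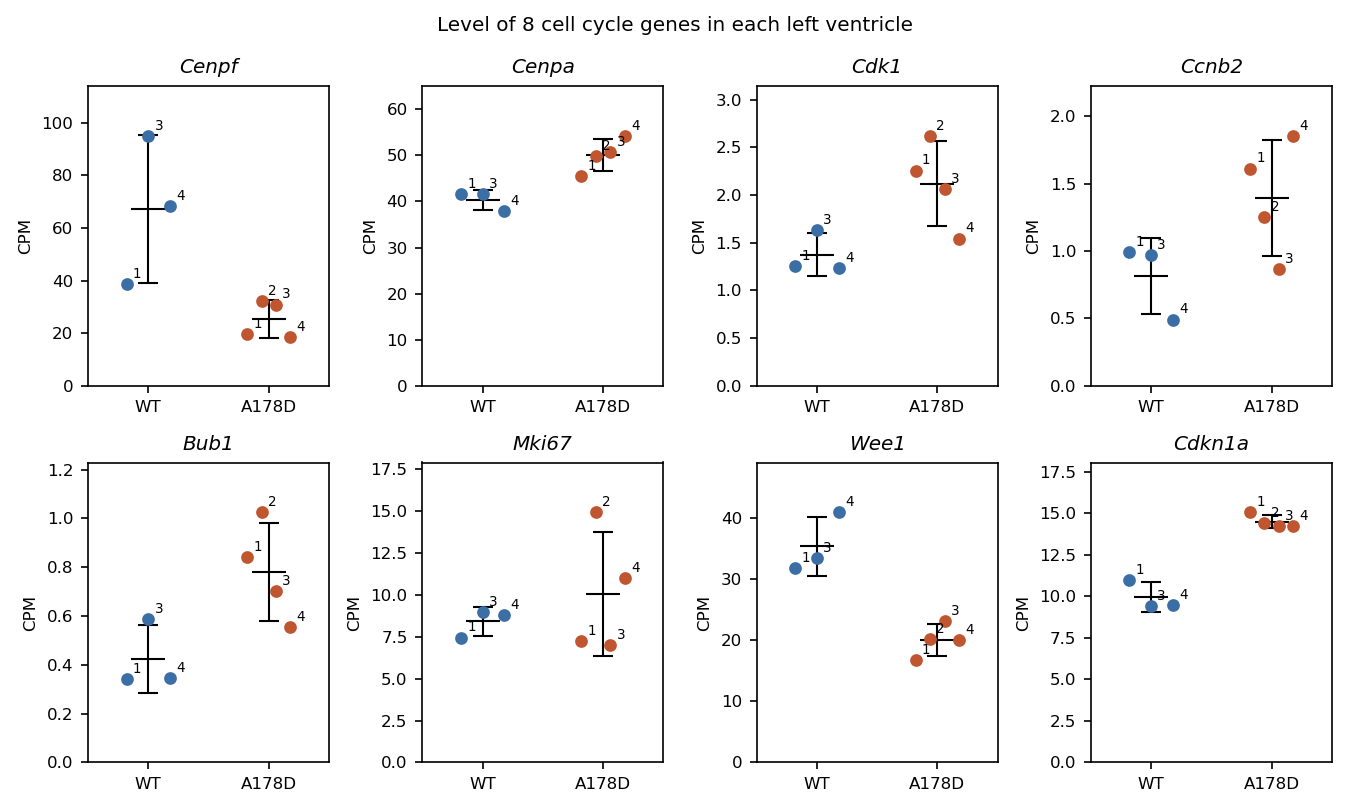
Level in CPM (y axis, from 0) of 8 genes in each left ventricle, with points numbered by replicate and black lines for the mean and SD of each genotype. *Cenpf* and *Wee1* are lower in each A178D heart than in each WT heart, *Cenpa* and *Cdkn1a* are higher, and the genotypes overlap in *Cdk1*, *Ccnb2*, *Bub1* and *Mki67*.

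Of the 11 cyclin and CDK genes, 0 were called by edgeR, DESeq2 or limma-voom. At an unadjusted p under 0.05 from edgeR 2 were higher, beside 7.93% of all genes, and 0 were lower, beside 8.81%. Of the 11 genes 8 lay above 0, with a median log2 fold change of 0.053. *Cdk1* (ENSMUSG00000019942, minus strand, chr10:69335146-69352938) encodes the kinase that starts mitosis. It had 1.256, 1.63 and 1.23 CPM in WT replicates 1, 3 and 4. A178D hearts had 2.26, 2.62, 2.06 and 1.54 CPM in replicates 1 to 4. A178D replicate 4 fell within the WT range and the other A178D hearts lay above it. This gave a log2 fold change of 0.63 (standard error 0.24, edgeR adjusted p = 0.214). *Ccnb2* (ENSMUSG00000032218, minus strand, chr9:70407692-70421547), which encodes a B-type cyclin that activates Cdk1, had 0.989, 0.972 and 0.492 CPM in WT replicates 1, 3 and 4. A178D hearts had 1.61, 1.25, 0.867 and 1.85 CPM in replicates 1 to 4. A178D replicate 3 lay below the upper WT hearts, so that the genotypes overlapped. For *Ccnb2* the log2 fold change was 0.74 (standard error 0.34, edgeR adjusted p = 0.295). *Ccnb1*, which encodes the main B-type cyclin, had a log2 fold change of 0.053, with a 95% interval from -0.82 to 0.92 that takes in the values of *Cdk1* and *Ccnb2*. Its A178D replicate 4 held 9 counts, and without that heart the log2 fold change was 0.30. The S phase and G2 cyclin gene *Ccna2* had 0.19 and the G1 cyclin gene *Ccne1* -0.13.

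The D-type cyclin genes, *Cdk4* and *Cdk2* were abundant enough for narrower intervals, all of which included 0. The log2 fold change was 0.053 for *Ccnd1* (95% interval -0.14 to 0.24), 0.14 for *Ccnd2* (-0.06 to 0.33) and -0.0057 for *Ccnd3* (-0.19 to 0.18). It was 0.064 for *Cdk4* (-0.12 to 0.25) and 0.040 for *Cdk2*, the partner of cyclins E and A (-0.19 to 0.27). *Cdk6*, the second partner of the D-type cyclins, had the lowest value of the group with -0.54 and a wide interval from -1.24 to 0.15. The fits that each left out 1 heart gave -0.77 to -0.16 for *Cdk6*. Its level ran from 2.44 to 5.22 CPM in WT and from 1.05 to 3.36 CPM in A178D hearts. WT replicate 4 was highest and A178D replicate 4 lowest, and the other hearts overlapped.

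The proliferation marker *Mki67*, whose protein coats mitotic chromosomes and is found in cycling but not in resting cells, had 7.46, 8.99 and 8.81 CPM in WT replicates 1, 3 and 4. A178D hearts had 7.26, 14.9, 7.03 and 10.99 CPM in replicates 1 to 4. A178D replicates 2 and 4 were above all WT hearts and replicates 1 and 3 below all of them. The log2 fold change was 0.26 (95% interval -0.21 to 0.73, edgeR adjusted p = 0.587), and it was -0.00061 without A178D replicate 2. *Top2a*, which encodes the topoisomerase that untangles replicated chromosomes, ranged from 4.29 to 5.14 CPM in WT and from 4.26 to 8.29 CPM in A178D hearts. Its highest value came from A178D replicate 2 as well, and its lowest from A178D replicate 3. The log2 fold change was 0.38 (95% interval -0.04 to 0.80, edgeR adjusted p = 0.352), and the fits that each left out 1 heart gave 0.18 to 0.51.

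Of the 11 replication genes, 0 were called by edgeR, DESeq2 or limma-voom, and 0 had an unadjusted p under 0.05 from edgeR. Their median log2 fold change was 0.050, with 6 above 0 and a range from -0.13 to 0.37. The subunits of the Mcm2-7 helicase, which unwinds DNA at origins, fell on both sides of 0. *Mcm2* had a log2 fold change of 0.097, *Mcm3* 0.050 and *Mcm5* 0.053, while *Mcm4* had -0.034, *Mcm6* -0.095 and *Mcm7* -0.13. The helicase partner *Cdc45* had 0.11 and the loading factor *Cdc6* -0.087. *Pcna* had -0.032 with a 95% interval from -0.22 to 0.16. The 2 genes of nucleotide synthesis lay above 0, with 0.14 for *Tyms*, thymidylate synthase, and 0.37 for *Rrm2*, the regulated subunit of ribonucleotide reductase. *Rrm2* ranged from 2.12 to 3.26 CPM in WT and from 2.76 to 4.17 CPM in A178D hearts. WT replicate 3 was within the A178D range and the other WT hearts were below it.

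Among the 11 genes of mitotic kinases, the spindle and cytokinesis, 9 lay above 0 with a median log2 fold change of 0.24, while 0 were called by edgeR, DESeq2 or limma-voom and 0 had an unadjusted p under 0.05 from edgeR. The largest values belonged to the Aurora kinases and survivin. *Aurkb*, the kinase of the chromosomal passenger complex, had a log2 fold change of 0.64 (95% interval -0.06 to 1.35), and *Birc5*, which encodes survivin, a subunit of the same complex, had 0.43. *Aurka*, the kinase of spindle poles, had 0.52, and its activator *Tpx2* 0.26. *Plk1*, a kinase that acts from mitotic entry to cytokinesis, had 0.24. Among genes of the central spindle and cleavage furrow, *Anln* had 0.27, *Prc1* 0.17, *Kif23* 0.16 and *Kif20a* -0.0054. The spindle motor gene *Kif11* had 0.18 and the microtubule-binding *Nusap1* -0.086. *Aurka* ranged from 0.951 to 1.53 CPM in WT and from 1.01 to 2.66 CPM in A178D hearts. A178D replicates 2 and 4 were above all WT hearts and replicates 1 and 3 inside the WT range. Without A178D replicate 2 the log2 fold change of *Aurka* was 0.20 and that of *Tpx2* -0.0065. Over the proliferation markers and genes of the kinetochore, spindle and cytokinesis together, 16 of 19 were above 0 with a median of 0.26, and without that heart 12 of 19 with a median of 0.12.

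The 3 transcription factor genes lay above 0. *Mybl2*, which works with the MuvB complex on genes of G2 and mitosis, had 0.228, 0.440 and 0.492 CPM in WT replicates 1, 3 and 4. A178D hearts had 0.520, 0.531, 0.633 and 0.957 CPM in replicates 1 to 4. The genotypes did not overlap, but the lowest A178D heart was close to the highest WT heart, and these levels stand for 12 to 31 counts. *Mybl2* had a log2 fold change of 0.76 (standard error 0.43, edgeR adjusted p = 0.397). *E2f1*, a main activator of replication genes, had 0.38, and *Foxm1*, which acts on genes of mitosis, had 0.093, with edgeR adjusted p of 0.580 and 0.903. In the fits that each left out 1 heart, *E2f1* ran from 0.18 to 0.90 and *Foxm1* from -0.15 to 0.24.

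Single hearts differed across many members at once. A178D replicate 2 had the highest level of all hearts in 21 of the 44 members, and in 13 of the 19 proliferation markers and genes of the kinetochore, spindle and cytokinesis. WT replicates 1 and 4 were each lowest in 11 members, and A178D replicate 3 was lowest in 10. How often each heart was highest or lowest over all genes was not counted. The mean deviation of the 44 members from the 7-heart mean, on the scale of log2(CPM + 0.25), was -0.16, 0.055 and -0.090 in WT replicates 1, 3 and 4. It was -0.0076, 0.26, -0.093 and 0.037 in A178D replicates 1 to 4. A178D replicate 2 stood above the rest, and the remaining hearts of the genotypes were mixed. For these 19 genes without *Cenpf* the deviation was -0.25, -0.032 and -0.12 in WT and -0.0035, 0.42, -0.16 and 0.15 in A178D hearts, in the same order of replicates. Here A178D replicate 3 was lower than all but 1 of the WT hearts. Among these 19 genes *Cenpf* did not follow the others. Its highest values came from WT replicates 3 and 4 and its level in A178D replicate 2 was less than that in any WT heart. The replication gene *Mcm4* had both traits as well, with 11.7 to 13.1 CPM in WT hearts and 11.6 CPM in A178D replicate 2.

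**Figure D3:**
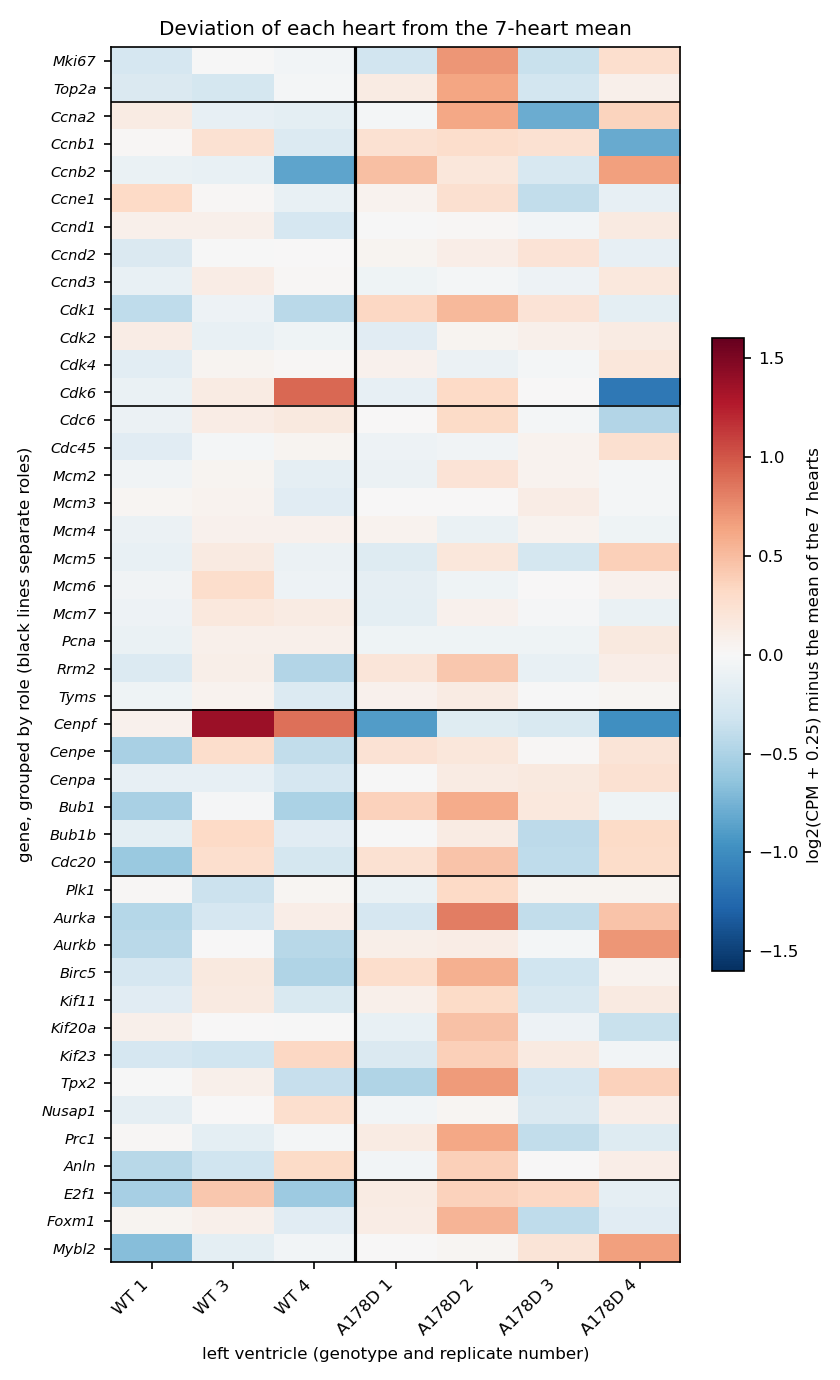
Deviation of each gene (rows, grouped by role) in each heart (columns) from its 7-heart mean, in log2(CPM + 0.25), with red above and blue below the mean. A178D replicate 2 is red across most genes of mitosis, and *Cenpf* is blue in the 4 A178D hearts.

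Some members share sequence or position with other genes, and their counts are less certain for it. *Ccnb1*, *Ccnb2*, *Ccnd3*, *Pcna* and *Tyms* have annotated pseudogenes. *Kif11* shared its counts in all 7 libraries with another entry of the table. Genes on the other strand overlap *Ccna2*, *Ccnd1*, *Ccnd3*, *Cdk2*, *Cdk4*, *Cdc45*, *Mcm7*, *Cdc20*, *Kif20a*, *Nusap1* and *Prc1*, among others, and *Tex52* overlaps *Foxm1* on the same strand. The libraries were stranded, but whether the counting used strand is not given in the sources used here.

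Other genes of the cell cycle were read out of the same fit as 9 lists with 180 genes, all tested but *Cenph* and *Ska1*, which did not reach the count minimum. By edgeR 1 gene was called higher and 2 were called lower, beside 1.04% and 1.31% of all genes. In the same directions 11 and 7 had an unadjusted p under 0.05, beside 7.93% and 8.81% of all genes. A fold change above 0 was found for 106 genes, and the median was 0.036 on the log2 scale. DESeq2 called 2 higher and 3 lower, beside 2.21% and 2.88% of all genes with an adjusted p from it. limma-voom called 1 and 2, beside 1.07% and 1.28% of all genes.

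The gene with the smallest p was *Wee1* (ENSMUSG00000031016, plus strand, chr7:110122046-110143286), which encodes the kinase that keeps Cdk1 inactive before mitosis. WT hearts had 31.9, 33.4 and 41.0 CPM in replicates 1, 3 and 4. A178D hearts had 16.7, 20.2, 23.2 and 20.01 CPM in replicates 1 to 4. Each A178D heart lay well below each WT heart. *Wee1* fell by 0.82 on the log2 scale (standard error 0.11), with an edgeR adjusted p of 0.00406, and was called in all 16 alternatives. It was the only one of the 12 genes for CDK activation and inhibition to be called by edgeR, beside 1.31% of all genes called lower.

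Among the 7 CDK inhibitor genes, *Cdkn1a* (ENSMUSG00000023067, plus strand, chr17:29090976-29100727), which encodes p21, a target of p53, was called higher by edgeR, beside 1.04% of all genes. It had 10.98, 9.39 and 9.48 CPM in WT replicates 1, 3 and 4. A178D hearts had 15.0, 14.4, 14.2 and 14.2 CPM in replicates 1 to 4. The A178D hearts were nearly alike and all above the WT hearts. *Cdkn1a* rose by 0.54 on the log2 scale (standard error 0.10), with an edgeR adjusted p of 0.0146. The call was lost without WT replicate 3 (adjusted p = 0.0944), WT replicate 4 (0.0746) or A178D replicate 1 (0.0565), in a range of 0.00665 to 0.0944 over the 7 fits of edgeR without 1 heart. DESeq2 also called *Cdkn2d* higher, beside 2.21% of all genes with an adjusted p from it. For *Cdkn2d*, an inhibitor of Cdk4 and Cdk6, edgeR gave a log2 fold change of 0.37 and an adjusted p of 0.0921.

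In the list of Rb, E2F and DREAM complex genes, 1 of 16 was called by edgeR, beside 1.31% of all genes called lower. This was *Tfdp2* (ENSMUSG00000032411, plus strand, chr9:96196275-96323646), whose protein pairs with E2F factors to bind DNA. WT hearts had 103.2, 112.9 and 130.2 CPM in replicates 1, 3 and 4. A178D hearts had 90.9, 91.3, 87.6 and 93.2 CPM in replicates 1 to 4. The A178D hearts were close together, and the WT hearts were spread above them. *Tfdp2* fell by 0.35 on the log2 scale (standard error 0.08), with an edgeR adjusted p of 0.0379. This call was kept in 2 of the 7 fits without 1 heart, those without WT replicate 1 (adjusted p = 0.0116) and without A178D replicate 4 (0.0340). Without WT replicate 3 it was 0.133, without WT replicate 4 0.167, and without A178D replicates 1, 2 and 3 it was 0.111, 0.0828 and 0.100. Offsets for transcript length and GC content gave 0.157.

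In the remaining 6 lists edgeR called 0 genes, and DESeq2 called 1, *Hjurp*, beside 2.88% of all genes that it called lower. *Hjurp* encodes the chaperone that loads Cenpa onto centromeres, and belongs to a list of 19 genes of the inner centromere, 18 of which were tested. It had 6.49, 7.19 and 5.41 CPM in WT replicates 1, 3 and 4. A178D hearts had 4.44, 5.05, 4.36 and 3.98 CPM in replicates 1 to 4. Each A178D heart lay below each WT heart, on the opposite side from *Cenpa*. For *Hjurp* the log2 fold change was -0.51 (standard error 0.15), with an adjusted p of 0.0890 from edgeR and 0.0455 from DESeq2. *Oip5*, a subunit of the Mis18 complex that prepares centromeres for Cenpa, had a log2 fold change of 1.14 (standard error 0.42, edgeR adjusted p = 0.194). Its level ran from 0.171 to 0.367 CPM in WT and from 0.512 to 0.719 CPM in A178D hearts. *Oip5* overlaps *Nusap1* on the other strand.

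Of the 19 cohesin and condensin genes 4 had an unadjusted p under 0.05 from edgeR, all lower, beside 8.81% of all genes in that direction, and 6 lay above 0, with a median log2 fold change of -0.072. The cohesin ring gene *Smc1a* had a log2 fold change of -0.21 (edgeR adjusted p = 0.131), the cohesin loader gene *Nipbl* -0.27 (0.137) and the cohesin subunit gene *Stag1* -0.23 (0.168). Cohesin also shapes chromatin in cells that do not divide. In the further spindle and cytokinesis list 4 of 29 genes had an unadjusted p under 0.05, all higher, beside 7.93% of all genes, and 21 lay above 0, with a median of 0.23. *Ckap2*, a spindle microtubule protein, had 0.74 (edgeR adjusted p = 0.204), the centrosome kinase gene *Nek2* 1.15 (0.219) and the microtubule-depolymerising kinesin gene *Kif2c* 0.97 (0.288). *Nek2* shared its counts in all libraries with another entry, and its level was lowest in A178D replicate 1.

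In the list of origins and the replication fork, 22 of 38 genes lay above 0 with a median of 0.012. At an unadjusted p under 0.05 from edgeR 1 was higher, beside 7.93% of all genes. This was *Gmnn*, which encodes geminin, an inhibitor of origin licensing, with a log2 fold change of 0.26 (adjusted p = 0.150). It had 41.6, 42.0 and 43.4 CPM in WT replicates 1, 3 and 4 and from 43.9 to 56.5 CPM in A178D hearts, without overlap. Of the 18 genes of the anaphase promoting complex list 13 lay above 0 with a median of 0.11. At an unadjusted p under 0.05 from edgeR 1 was higher, beside 7.93% of all genes. It was *Cdc23*, a subunit of the complex (log2 fold change 0.20, edgeR adjusted p = 0.225). *Cdc23* overlaps *Kif20a* on the other strand. Of the outer kinetochore and spindle checkpoint genes 21 of 22 were tested, 14 lay above 0 with a median of 0.067, and 0 had an unadjusted p under 0.05.

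Markers of cell types were read from the same libraries. The 8 cardiomyocyte markers summed to 100058 ± 3346 CPM (SD, n = 3) in WT and 98299.9 ± 4219.6 CPM (SD, n = 4) in A178D hearts, led by *Myh6*. Of the 4 atrial markers, *Myl7* and *Sln* did not exceed 0.25 CPM in any heart. The other 2 were present and higher in each A178D heart than in each WT heart, as in 7.61% of all genes. *Nppa*, which encodes atrial natriuretic peptide, ranged from 109.2 to 248.7 CPM in WT and from 321.8 to 587.8 CPM in A178D hearts, and was called by edgeR (log2 fold change 1.31, adjusted p = 0.0146). *Myl4*, an atrial myosin light chain gene, ranged from 1.85 to 1.90 CPM in WT and from 2.14 to 4.01 CPM in A178D hearts (log2 fold change 0.65, edgeR adjusted p = 0.171). Of the 4 epicardial markers, *Msln*, *Upk3b* and *Upk1b* did not exceed 0.25 CPM in any heart, and *Wt1* ranged from 4.01 to 5.23 CPM in WT and from 3.27 to 4.17 CPM in A178D hearts. The 8 endothelial markers, led by *Kdr*, summed to 1151 ± 82.6 CPM in WT and 1157 ± 22.8 CPM in A178D hearts. The 7 fibroblast markers, led by *Dcn*, summed to 996 ± 41.2 CPM in WT and 1068 ± 64.8 CPM in A178D hearts. Of these 6 lay above 0. At an unadjusted p under 0.05 from edgeR 3 were higher, beside 7.93% of all genes. In these 3 the genotypes did not overlap, as in 7.61% of all genes in that direction. They were *Col1a1* with a log2 fold change of 0.45, *Col1a2* with 0.26 and *Lum* with 0.19. EdgeR called 0 of the fibroblast markers, limma-voom 0 and DESeq2 1, *Col1a1*, beside 2.21% of all genes that DESeq2 called higher.

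All 8 smooth muscle and pericyte markers lay below 0, and 4 of them (*Acta2*, *Tagln*, *Myh11* and *Cnn1*) were called lower by edgeR, beside 1.31% of all genes. limma-voom called the same 4 lower, beside 1.28% of all genes. DESeq2 called 6 lower, these and *Pdgfrb* and *Rgs5*, beside 2.88% of all genes with an adjusted p from it. The summed level of the 8 markers was 1327, 1358 and 1332 CPM in WT replicates 1, 3 and 4. In A178D replicates 1 to 4 it was 1035, 1124, 1194 and 948 CPM, and the most abundant of these genes was *Abcc9*. In this sum each A178D heart lay below each WT heart. All 8 macrophage markers lay above 0, with 0 called by edgeR and 3 at an unadjusted p under 0.05, beside 7.93% of all genes. DESeq2 called 1 of them higher (*C1qb*), beside 2.21% of all genes with an adjusted p from it. The summed level of the macrophage markers, led by *Csf1r*, was 203.1, 266.4 and 231.4 CPM in WT replicates 1, 3 and 4. It was 268.8, 280.4, 248.4 and 279.1 CPM in A178D replicates 1 to 4, so that the genotypes overlapped. A178D replicate 2, which was highest in most genes of mitosis, had the highest value, close to that of replicate 4. Erythroid and neutrophil markers that were tested also lay above 0, with 0 called by edgeR, DESeq2 or limma-voom, 0 at an unadjusted p under 0.05 from edgeR, and overlap of the genotypes in each. Of the 6 lymphocyte markers 4 lay above 0 and 2 (*Ms4a1* and *Cd2*) below. Their summed level overlapped, with 1.48 to 3.16 CPM in WT and 2.47 to 3.27 CPM in A178D hearts. Among them limma-voom called *Cd3d* higher and edgeR did not (adjusted p = 0.101). *Cd3d* had 0, 0 and 4 counts in WT replicates 1, 3 and 4 and 8, 12, 10 and 16 counts in A178D replicates 1 to 4. The part of these cell types in the levels of the cell cycle genes was not tested.

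Promoter windows from 250 bases before to 50 bases after the gene start (RefSeq, GRCm38.p6) matched 36 of the 44 members. Without a match were *Ccna2*, *Ccnd1*, *Ccnd2*, *Mcm4*, *Aurkb*, *Kif20a*, *Tpx2* and *Foxm1*. Each window was searched on both strands for exact letters of 3 motifs known from cell cycle promoters. The CHR element (TTTGAA), through which MuvB complexes act, was found in 16 of the 36 members (44.4%) and in 20.2% of 27025 genes with a window. The NF-Y motif (CCAAT) was found in 26 members (72.2%) and in 41.1% of genes, and an E2F motif (TTCCCGC) in 4 members (11.1%) and in 5.29% of genes. CHR and NF-Y letters stood together in 15 members (41.7%) and in 8.97% of genes. Among proliferation markers and genes of the kinetochore, spindle and cytokinesis it was 11 of 16 (68.8%). The E2F letters were found in *Cdk2*, *Cdc6*, *Mcm3* and *Mcm7*. A match describes the letters only and does not show binding.

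The promoter of *Cenpf*, the member that fell, is set beside those of *Ccnb2*, *Cdk1* and *Bub1*, which had an unadjusted p under 0.05 in the higher direction, to show the motif letters in each. The sequences run 5′ to 3′ on the minus strand of GRCm38.p6, from 140 bases before the gene start to 10 bases after it, or 4 bases after it for *Cdk1*. They lie at chr1:189688077-189688226 for *Cenpf*, chr9:70421545-70421694 for *Ccnb2*, chr10:69352909-69353052 for *Cdk1* and chr2:127831850-127831999 for *Bub1*. Capitals mark CHR letters (TTTGAA) and NF-Y letters (CCAAT, or ATTGG where they are on the other strand).
Cenpf: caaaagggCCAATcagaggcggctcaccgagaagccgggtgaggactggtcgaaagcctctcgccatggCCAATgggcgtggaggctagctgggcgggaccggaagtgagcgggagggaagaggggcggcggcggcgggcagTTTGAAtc
Ccnb2: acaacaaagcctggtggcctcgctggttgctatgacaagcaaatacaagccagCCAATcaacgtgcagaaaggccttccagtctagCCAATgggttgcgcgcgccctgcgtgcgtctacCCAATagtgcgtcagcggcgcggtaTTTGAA
Cdk1: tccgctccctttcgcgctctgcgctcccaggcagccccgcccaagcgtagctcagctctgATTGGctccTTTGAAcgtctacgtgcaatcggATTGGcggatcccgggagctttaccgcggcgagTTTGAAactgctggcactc
Bub1: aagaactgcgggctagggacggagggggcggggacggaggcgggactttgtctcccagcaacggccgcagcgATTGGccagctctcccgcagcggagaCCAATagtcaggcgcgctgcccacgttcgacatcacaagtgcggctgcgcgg
In *Cenpf* the CHR letters begin at base 3 after the start, and NF-Y letters begin 132 and 71 bases before it. In *Ccnb2* the CHR letters begin at base 5 after the start, behind a row of 3 NF-Y matches. In *Cdk1* there are 2 CHR matches and 2 NF-Y matches on the other strand, and in *Bub1* 2 NF-Y matches, 1 on each strand, with no CHR letters in this stretch. *Cenpf* carries letters of the same 2 motifs as *Ccnb2* and *Cdk1*. *Cenpa*, whose promoter is not printed, has letters of both in its window as well. Whether these letters relate to the fold changes was not tested.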

How the data were processed

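For 7 stranded poly(A) libraries, a table of unnormalised gene counts was deposited by the authors. Their processing notes name bcl2fastq 2.18.0.12, HISAT2 2.1.0, SAMtools 1.6, DESeq2 1.26.0 and GRCm38; the counting program and annotation are not given in the sources used here. The second deposited table, scaled by size factors, was not used. Identifiers were named by GENCODE release M21. Of 21257 entries, 219 sets with identical counts and other exact repeats were reduced to 1 entry each, leaving 20927 entries, counted as genes. In these, 36 identifiers that repeat with differing counts were kept apart. Between 17.6 and 20.3% of counts from 1 to 20 were odd, so most fragments seem to be counted once per end. Genotypes were compared with edgeR 4.0.16 in R 4.3.3 (TMM, quasi-likelihood test, no covariate), after testing the code on simulated data, with DESeq2 1.42.0, limma 3.58.1, mgcv 1.9.3 and other settings as alternatives. Standard errors cover counting error and spread between hearts. Every member is named. Members with an unadjusted p under 0.05 get their value in every library, as do a few others chosen after their values were seen (*Mki67*, *Mybl2*). From further lists each called gene is named or, where there is none, up to 3 with the smallest p under 0.05; *Cdkn2d* was added after its values were seen. Members and lists were chosen with earlier results of these data known. Printed promoters are those of members with an unadjusted p under 0.05, apart from *Cenpa*.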

Additional observations from a re-analysis of the deposited data

Results flagged for a closer look

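Among 57 groups of 4 A178D values, those of the members and the named further genes, 4 held a heart far from the other hearts, measured as its gap to the nearest heart divided by the range. Chance gives about 1 in 20 such groups. Each of them was A178D replicate 4, the library with the fewest counts (33080675). *Ccnb1* had 0.278 CPM there against 0.843 to 0.873 in the other A178D hearts. *Ccnd3* had 67.5 CPM against 56.6 to 58.4, and *Pcna* 37.4 CPM against 32.0 to 32.1. *Aurkb* had 1.73 CPM against 0.937 to 1.06. In that heart *Ccnb1* held 9 counts, *Aurkb* 56, *Pcna* 1212 and *Ccnd3* 2185. The part of depth in these values was not tested. These genes were not called by edgeR with or without this heart.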

How the results depend on the processing

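Leaving out each heart in turn gave 24 to 215 genes called higher, 32 to 238 called lower, and 0 to 1 members called lower, with both lowest counts of genes and the loss of *Cenpf* without WT replicate 3, and a loss of *Cenpf* also without WT replicate 4. The members' median log2 fold change ranged from 0.047 without A178D replicate 2 to 0.16 without A178D replicate 4. DESeq2's Wald test called 289 genes higher, 377 lower and 1 member higher (*Cenpa*). Offsets for transcript length and GC content gave 229, 275 and 1 (*Cenpa*). An adjusted p under 0.01 left 24 genes higher, 40 lower and 0 members lower. The smaller counts at the stricter threshold follow from the threshold, and the cause of the other differences was not tested. DESeq2 size factors in edgeR, limma-voom, other filters on low counts, the table as deposited and halved counts kept these counts within 1.5 times those of the main test, and *Cenpf* called lower.

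Hearts with equal replicate numbers did not have alike profiles. The deviations of the hearts numbered 1, 3 and 4 correlated across genes with r = 0.0031, -0.040 and -0.042. These few values cannot show whether equal numbers stand for hearts handled together. With the replicate number as a block, 124 genes were called higher and 147 lower, with 0 members higher and 1 lower (*Cenpf*, log2 fold change -1.50, adjusted p = 2.16e-05), and *Tfdp2* was not called (-0.34, 0.0744). The block leaves A178D replicate 2, the only heart with its number, without weight, and the members' median was 0.054.

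Among listed genes called by edgeR, *Cenpf*, *Cdkn1a*, *Wee1*, *Tfdp2*, *Nppa*, *Acta2*, *Tagln*, *Myh11* and *Cnn1* kept the sign of their fold change in each alternative. Other called genes were not followed through the alternatives. Of the 44 members, 19 had a fold change that crossed 0 in at least 1 alternative, none of them called. Low counts limit what can be seen for most genes of mitosis. *Bub1* had 14 to 54 counts per heart and *Mybl2* 12 to 31, and their 95% intervals, 0.04 to 1.72 and -0.15 to 1.68, allow large differences and almost none. Most fragments seem to be counted once per end, so fewer fragments than counts would stand behind these levels. With 3 and 4 hearts, the absence of a call does not show that a level was the same. Bulk RNA does not tell which cells hold these transcripts.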
